A study of Mus musculus with 23 samples.

Results

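Naive spleen B cells of the mouse that carried guide RNA 2 against Irf8 were compared with unguided naive B cells of the same arm of the study. Members are the 6 libraries that the naive RPKM table names for the guide 2 arm, 3 KO and 3 WT, out of 23 libraries in the series. RPKM is the number of reads scaled to gene length and sequencing depth. KO libraries (genotype label IRF8 KO, sgRNA 2) came from cells sorted as CD11b-, F4/80-, Thy1.2-, B220+ and Thy1.1+. WT libraries came from cells of the same sort that were Thy1.1- and are labelled as holding no guide. All 6 libraries are labelled spleen, without stimulation, and the strain, age and number of animals and the delivery of the guide are not given in the labels. Each library has a letter, A, B or C, and the labels do not say that a letter marks an animal, so the p-values reflect spread between libraries, which may be technical. No library carried a guide against another gene. A change with loss of Irf8, with carrying a guide and with the Thy1.1 sort therefore cannot be told apart.

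IRF8 belongs to the interferon regulatory factors, a family of DNA-binding proteins of immune cells. It binds DNA weakly alone, and strongly with ETS partners such as PU.1 and SPIB at ETS-IRF composite elements, or with other IRF proteins at interferon-stimulated response elements (ISRE), the sites through which interferons switch on antiviral genes. Mature spleen B cells are mostly follicular cells, which recirculate and carry CD23, with a smaller number of marginal zone cells, which sit at the blood sinus, carry much CD21 and CD1d and depend on Notch signals. IRF8 is known for roles in the choice between these fates, in antigen presentation and in germinal centres.

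A few interferon-stimulated genes rose in KO cells, led by Ifit1, Ifit3b and Ifit3 at 6.51, 4.49 and 3.28 times their WT means, while most genes of their list were not called. Gpr34, S1pr3 and Cr2 rose among marginal zone genes, and that list as a whole stood higher in KO libraries A and B than in C. The genes that fell most were Wfdc17, Cyp27a1, Kmo and Fcgrt, and the follicular marker Fcer2a and the repressor Bach2 fell as well. limma called 55 of 9770 tested genes (0.563%) at an adjusted p under 0.05, 29 higher (0.297%) and 26 lower (0.266%), and 36 of them differed by at least 1 on the log2(RPKM + 1) scale. An unadjusted p under 0.05 was found for 905 genes, where 488 would come by chance. KO and WT libraries did not overlap for 1344 genes (13.8%), of which 720 had all KO libraries above (7.37%) and 624 all below (6.39%). With 3 against 3 libraries in random order, such separation in either direction has a probability of 0.1. The median difference over all tested genes was 0.0084 and the quartiles were -0.14 and 0.14. The last gene called was Ebi3 (adjusted p = 0.0458) and the next, Prkab2, was not called (adjusted p = 0.0505). The calls of Ifit1, Ifit3, Ifit3b, Ptpn22, Thy1, Wfdc17, Cyp27a1, Fcgrt and Kmo held when any 1 of the 6 libraries was left out, and each other call was lost without at least 1 library. Thy1 is the gene of the sort marker, so its call was set by the sort. The count was 9 without WT B, 14 without WT C, 25 without KO A and 152 without KO C.

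The promoters below are of 3 interferon-stimulated genes that rose and of Txndc5, which fell, followed by Lpcat2 with the other kind of IRF8 element. They come from RefSeq (GRCm38.p6), are written 5′ to 3′ on the gene's strand and end before the start that the promoter table gives, 1 for each gene. Capitals mark the core of an ISRE, GAAA and again GAAA with any 2 bases between, read on either strand. In Lpcat2 they mark an ETS-IRF composite, GGAA and then GAAA with any 2 bases between, likewise on either strand. Matches that overlap are run together. The start used for Oas1a lies inside the gene's annotated span, so that 19 bases of its stretch do too, and the start used for Lpcat2 also lies inside the span.
Ifit1, chr19:34640745-34640853, + strand: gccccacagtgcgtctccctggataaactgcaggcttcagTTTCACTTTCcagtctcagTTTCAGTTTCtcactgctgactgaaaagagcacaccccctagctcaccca
Isg15, chr4:156200835-156200936, - strand: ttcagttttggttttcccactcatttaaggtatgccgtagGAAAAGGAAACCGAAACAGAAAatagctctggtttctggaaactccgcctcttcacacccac
Oas1a, chr5:120907526-120907585, - strand: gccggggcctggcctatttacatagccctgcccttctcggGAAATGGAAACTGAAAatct
Txndc5, chr13:38528938-38529027, - strand: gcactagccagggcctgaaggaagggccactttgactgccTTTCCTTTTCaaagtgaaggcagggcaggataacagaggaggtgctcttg
Lpcat2, chr8:92855115-92855204, + strand: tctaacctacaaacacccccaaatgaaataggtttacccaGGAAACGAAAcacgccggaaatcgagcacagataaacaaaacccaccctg

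The stretches around the matches of Ifit3 and Ifit3b, not shown because they lie inside the annotated gene spans, are the same letter for letter. The 2 genes are near-identical copies, so reads counted for one may belong to the other. In Ifit1 the 2 matches begin 104 and 85 bases before the start. In Isg15 there were 3 overlapping matches within 78 bases of the start, and in Oas1a 2 within 20 bases.

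The ISRE core, searched on both strands from 250 bases before to 50 after the start, was in 3.9% of 7933 tested genes with a promoter entry. Of the 24 such genes called higher it was in 6 (25%), which were Ifit1, Ifit3, Ifit3b, Isg15, Oas1a and I830077J02Rik. Of the 23 called lower it was in 2 (8.7%), Phf11a and Txndc5. These called genes were chosen on the data and the shares carry no test. The composite was in 2.81% of all, in 1 of 24 called higher (Lpcat2) and in 1 of 23 called lower (Bach2). Of the stretches around the matches, all 57 bases of Bach2, 42 of Phf11a and 39 of I830077J02Rik lie inside the annotated gene spans. Within the list of interferon-stimulated genes the core was in 20 of 34 promoters (58.8%), in all 5 called higher and in 14 of 28 not called (50%). A match describes letters only and is no evidence of binding.

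The target and the sort marker were looked at first. Irf8 (chromosome 8, from 120736358 to 120756694 on GRCm38) had RPKM of 50.9, 50.3 and 47.6 in KO libraries A, B and C and of 88.0, 88.4 and 79.8 in WT libraries A, B and C. Each KO library lay below each WT library, and the KO mean was 58% of the WT mean. The log2 difference was -0.77 (SE 0.11, adjusted p = 0.00937 by limma). The exact two-sided permutation test of the 6 libraries gave p = 0.1, the smallest that 3 against 3 allows. These are transcript levels and show neither the edit nor the protein. The call of Irf8 was lost without WT library B (adjusted p = 0.0706). Thy1, the gene of the surface protein used in the sort, was at 22.1, 12.9 and 16.8 RPKM in KO and at 0, 0.052 and 0.016 in WT, which the sort itself set.

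**Figure D1:**
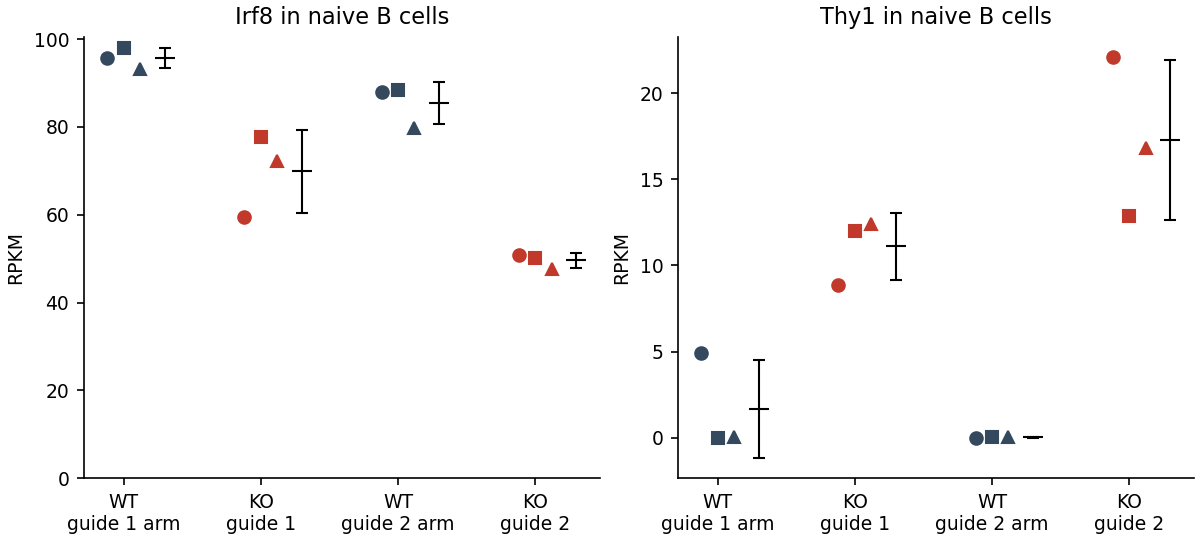
RPKM of Irf8 and Thy1 in each naive library (circle A, square B, triangle C; red KO, dark blue WT), with bars for mean and SD of 3 libraries. Irf8 sits between 47.6 and 50.9 in guide 2 KO and between 79.8 and 88.4 in guide 2 WT, and Thy1 is near 0 in the WT libraries of that arm.

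Among the other IRF family genes none of the 7 tested was called. Irf4, which shares DNA targets with IRF8 in B cells, was at 24.4, 20.6 and 28.3 RPKM in KO and 17.2, 18.7 and 25.7 in WT, and the groups overlapped (log2 difference 0.25, adjusted p = 0.728). Irf7, an amplifier of type I interferon, was at 15.6, 15.4 and 17.0 in KO and 14.2, 14.6 and 10.1 in WT (0.30, adjusted p = 0.608). The ETS partners did not pass the test either. Spi1, the gene of PU.1, had a difference of 0.42 (adjusted p = 0.42) and Spib one of -0.16 (adjusted p = 0.769). Of the 11 genes on that list none was called and none had groups apart. The list's median was -0.16, and 9 of the 11 had a negative difference (48.2% of all genes). Per library its median distance from the WT mean was -0.13, -0.22 and -0.24 in KO A, B and C. In WT A, B and C it was -0.01, -0.01 and 0.04.

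Interferon-stimulated genes split. Of 47 tested members 5 rose (Ifit1, Ifit3b, Ifit3, Isg15 and Oas1a), 1 fell (Phf11a) and 41 were not called. Over all genes 0.297% were called higher and 0.266% lower. All KO libraries lay above all WT libraries for 12 (7.37% of all genes) and below for 4 (6.39%). The list's median difference was 0.08, against 0.0084 over all genes. The list was not independent of the earlier results of these data, so its counts are a description.

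Ifit1 encodes a protein that binds foreign RNA ends and blocks their translation. It was at 13.2, 23.5 and 20.8 RPKM in KO libraries A, B and C and at 3.18, 3.41 and 2.25 in WT, so the lowest KO library was well above the highest WT library. Its log2 difference was 2.33 (SE 0.21, adjusted p = 0.000576). Ifit3, a partner of IFIT1 in the same complex, was at 67.1, 62.9 and 76.2 in KO and 28.3, 19.8 and 14.7 in WT. The 3 KO libraries were level with each other and the difference was 1.71 (SE 0.19, adjusted p = 0.00225). Ifit3b was at 23.3, 25.9 and 23.001 in KO and 7.94, 4.84 and 3.32 in WT, a difference of 2.04 (adjusted p = 0.00192). These 3 genes lie near each other on chromosome 19, between 34583119 and 34650009. Ifit2 of the same family was not called (0.48).

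Isg15, a ubiquitin-like protein that is joined to other proteins in antiviral responses, was at 46.1, 26.6 and 25.7 RPKM in KO and 13.8, 10.3 and 8.59 in WT. KO library A was the high one and the groups were apart (log2 difference 1.48, SE 0.22, adjusted p = 0.0113). Oas1a, an oligoadenylate synthase that senses double-stranded RNA, was at 19.1, 15.1 and 16.9 in KO and 8.98, 8.98 and 7.35 in WT (0.94, SE 0.15, adjusted p = 0.0146). Reads of Oas1a and its relative Oas1g may be shared. Oas1g had a difference of 0.55 and was not called. Phf11a went the other way, with 2.03, 2.28 and 2.13 in KO and 5.37, 6.44 and 5.21 in WT (-1.08, SE 0.17, adjusted p = 0.0146). Its neighbour in the family, Phf11b, was lower in every KO library than in any WT library without a call (-0.51, adjusted p = 0.135), as was Slfn8, of the Schlafen family (-0.81, adjusted p = 0.06).

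Other well-known members of the response were not called. Rsad2, the antiviral enzyme viperin, stayed below 2 RPKM in every library (0.24, adjusted p = 0.775). Mx1, a dynamin-like GTPase, was at 0.578, 1.55 and 0.843 in KO and 1.45, 3.33 and 1.84 in WT and the groups overlapped (-0.67, adjusted p = 0.412). Of 20 genes for interferon receptors and their signalling none was called. Ifnar1, a chain of the type I interferon receptor, was at 11.2, 16.4 and 14.5 in KO and 18.1, 23.2 and 20.0 in WT, apart but not called (-0.52, adjusted p = 0.242). Of 15 interferon-gamma-inducible GTPases, which act on membranes around intracellular microbes, none was called. All KO libraries lay above WT for 3 (7.37% of all genes), among them Gbp2 (0.72, adjusted p = 0.102) and Irgm1 (0.52, adjusted p = 0.218).

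**Figure D2:**
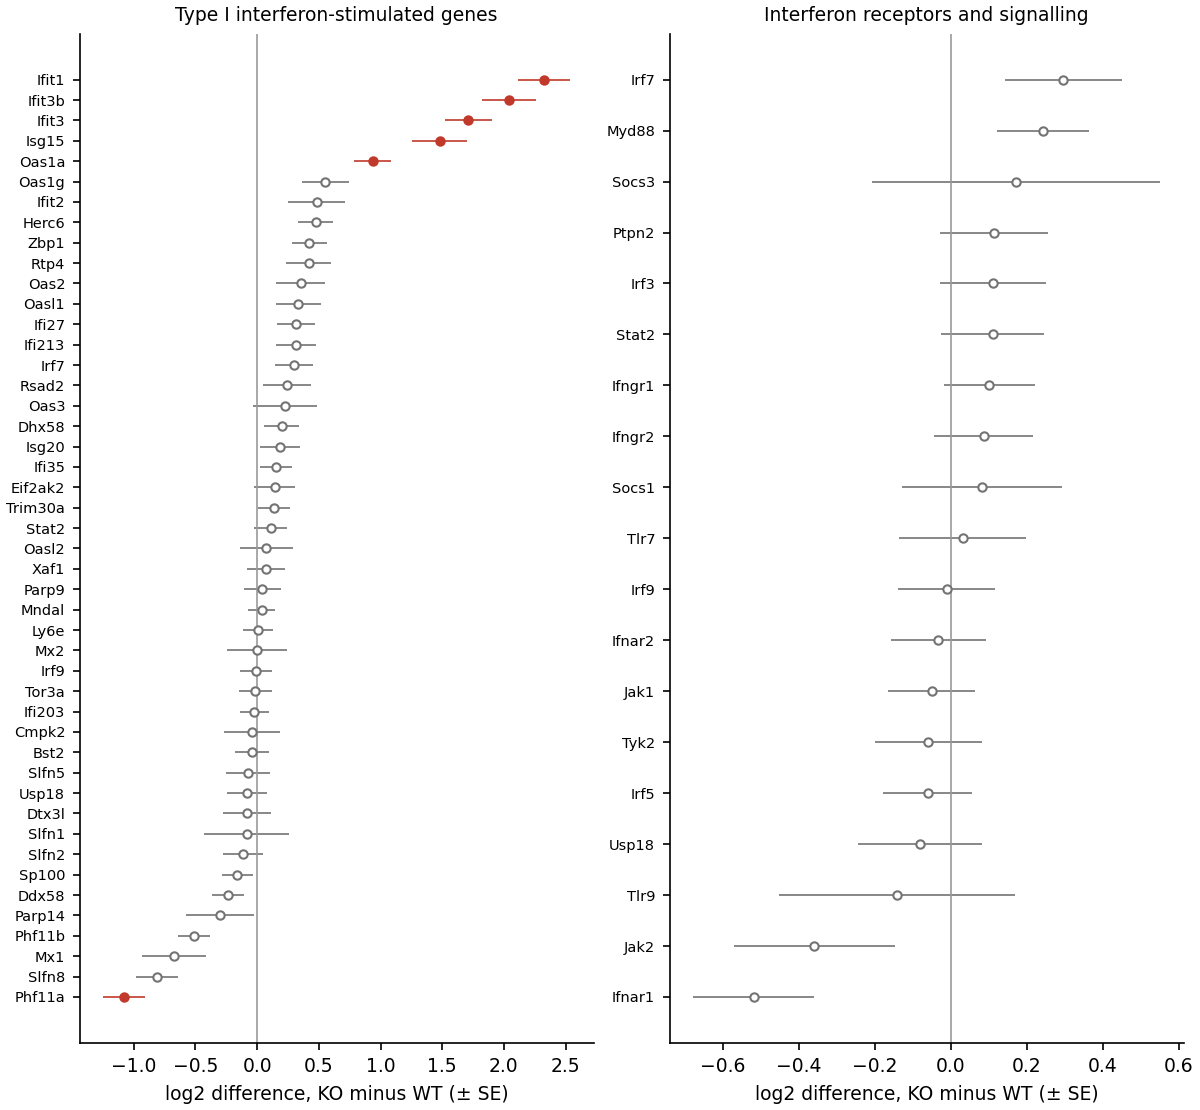
Log2 difference, KO minus WT, on the log2(RPKM + 1) scale with its SE for the members of 2 lists that are reported here; filled red points were called. On the left 5 genes stand from 0.94 to 2.33 and Phf11a at -1.08 while the rest lie between them, and on the right no gene was called.

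Marginal zone genes had positive differences throughout, unevenly across the KO libraries. Of 20 tested members 3 rose (Gpr34, S1pr3 and Cr2), none fell and 17 were not called, while 0.297% of all genes were called higher. All 20 had a positive difference, as had 51.8% of all genes. For 9 of them all KO libraries lay above all WT libraries (7.37% of all genes). The median difference was 0.78. Per library, the list's median distance from the WT mean was 1.23 in KO A, 1.04 in KO B and 0.29 in KO C, and 0.33 in WT A, -0.22 in WT B and -0.10 in WT C. KO C thus stood level with WT A. In bulk RNA a larger share of marginal zone cells and more of these transcripts per cell cannot be told apart. This list and those below were written with earlier results of these data known, so their counts are a description.

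Gpr34, a receptor for lysophosphatidylserine, was at 23.5, 28.2 and 21.5 RPKM in KO and 12.01, 4.45 and 4.26 in WT. All 3 KO libraries were high and WT A was the highest of the WT libraries (log2 difference 1.81, SE 0.28, adjusted p = 0.0146). S1pr3, a receptor for sphingosine-1-phosphate that is high on marginal zone B cells, was at 138, 127 and 61.8 in KO and 49.9, 25.1 and 38.0 in WT. KO C was the lowest KO library and just above WT A (1.48, SE 0.28, adjusted p = 0.0424). Cr2, the gene of complement receptor CD21, was at 242, 238 and 220 in KO and 144, 120 and 157 in WT. Here the 3 KO libraries were alike (0.74, SE 0.12, adjusted p = 0.0177).

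Cd1d1, which presents lipids and marks marginal zone cells, was at 152, 133 and 60.2 RPKM in KO and 77.4, 52.8 and 58.5 in WT, so that KO C lay within the WT range (log2 difference 0.77, adjusted p = 0.351). Cd9, a tetraspanin, had the same order, with 49.6, 46.9 and 18.8 in KO and 23.8, 12.7 and 13.3 in WT (1.10, adjusted p = 0.21). Dtx1, which Notch signals induce, was at 153, 101 and 62.4 in KO and 61.8, 47.6 and 43.5 in WT, and KO C exceeded WT A narrowly (0.96, adjusted p = 0.145). Rgs10, a regulator of G protein signalling, was apart without a call (1.19, adjusted p = 0.0586). Of the 20 genes of the Notch pathway 1 rose, Cr2 (0.297% of all genes were called higher). Cr2 is on both lists, and the median of the Notch list was 0.04.

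The marginal zone calls depended on single libraries. Without KO library C limma called 13 of the 20 members higher, Cd1d1, Cd9 and Dtx1 among them (adjusted p = 0.00291, 0.00297 and 0.00331), and without KO A, KO B or WT B it called none. Without WT A it called 6 and without WT C 1. Over all 9770 genes these fits called 152 without KO C (71.7% of them higher), 25 without KO A and 38 without KO B. They called 9 without WT B, 68 without WT A and 14 without WT C. KO C was also the KO library with the lowest median on this list (0.29). The list's median stayed positive in each of these fits.

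**Figure D3:**
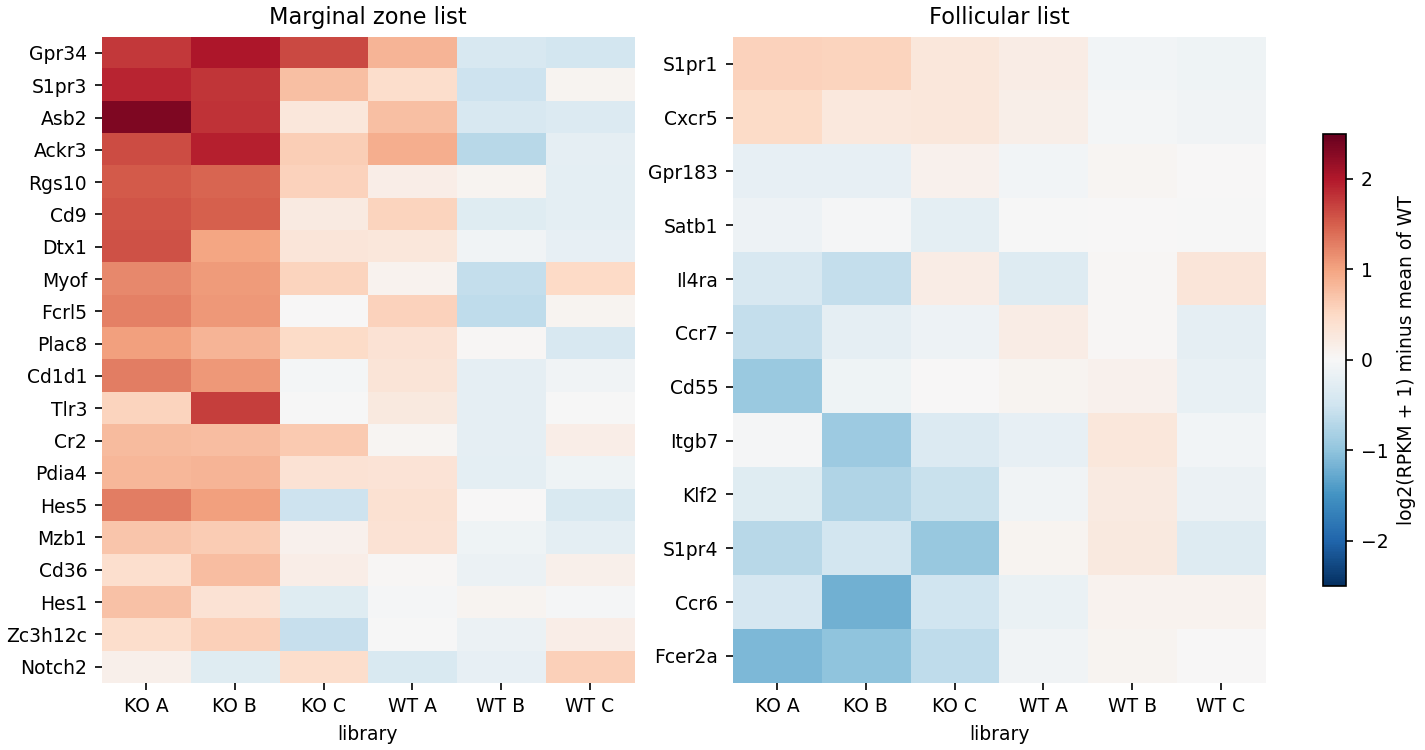
Colour gives log2(RPKM + 1) of each gene in each library minus the mean of the 3 WT libraries, for the reported members of the marginal zone list and the follicular list. KO A and KO B are red for most marginal zone genes (list medians 1.23 and 1.04), KO C is pale (0.29), and Fcer2a at the bottom right is blue in all 3 KO libraries.

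Of 13 follicular genes 1 fell, Fcer2a (0.266% of all genes were called lower), none rose, and 11 had a negative difference (48.2% of all genes had one). For 5 genes every KO library was below every WT library (6.39% of all genes) and for 2 above (7.37%), and the median was -0.31. Fcer2a, the gene of the low-affinity IgE receptor CD23, was at 167, 182 and 238 RPKM in KO and 346, 386 and 373 in WT. The highest KO library was far below the lowest WT library (log2 difference -0.92, SE 0.13, adjusted p = 0.00963). The call was lost without WT B (adjusted p = 0.0713) or WT C (0.0631). Klf2, a factor of quiescence and of homing, was at 230, 168 and 192 in KO and 268, 330 and 257 in WT (-0.54, adjusted p = 0.141). S1pr1, the receptor that draws B cells out of lymphoid tissue, and Cxcr5, which draws them into follicles, were apart in the other direction without a call (0.47, adjusted p = 0.159, and 0.35, adjusted p = 0.306).

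Among transitional and immature B cell genes 8 were tested, none was called and 7 had a negative difference (median -0.73). This median was unevenly spread too, at -1.11 in KO A, -0.10 in KO B and -0.16 in KO C, against 0.19 in WT A, -0.10 in WT B and -0.29 in WT C. KO B and KO C thus lay within the WT range. Vpreb3, a chaperone-like protein of young B cells, was at 31.4, 38.7 and 51.4 RPKM in KO and 64.3, 96.2 and 50.6 in WT, so KO C and WT C were alike (-0.76, adjusted p = 0.204). Myb, a transcription factor of immature cells, was at 0.759, 2.21 and 4.75 in KO and 5.24, 3.91 and 4.53 in WT (-0.79, adjusted p = 0.475).

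Of 20 genes of B cell identity 1 fell, Bach2, a transcriptional repressor that holds back plasma cell differentiation, and none rose. Over all genes 0.266% were called lower. Bach2 (chromosome 4, from 32238413 to 32586109) was at 5.15, 7.82 and 6.50 RPKM in KO and 14.9, 15.1 and 15.5 in WT. The WT libraries were nearly equal and all KO libraries were far below them (log2 difference -1.13, SE 0.16, adjusted p = 0.00937), a call that was lost without WT B (adjusted p = 0.069) or WT C (0.0631). Bcl6, the repressor of the germinal centre programme, was at 15.5, 16.2 and 17.5 in KO and 22.6, 21.8 and 25.05 in WT, apart but not called (-0.47, adjusted p = 0.154). Pax5 had a difference of -0.01 (SE 0.17), with overlapping groups. Of 18 plasma cell genes 1 fell, Txndc5, a disulfide isomerase of the endoplasmic reticulum (37.6, 33.1 and 37.8 in KO, 53.5, 63.1 and 63.7 in WT; -0.71, adjusted p = 0.0202). The others on that list were not called, and 5 in all had every KO library below every WT library (6.39% of all genes).

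Antigen presentation, a process in which IRF8 is known to act, was covered by 3 lists. Of 17 MHC class II genes none was called (median 0.01). Ciita, the master regulator of class II, was at 52.2, 49.6 and 59.6 RPKM in KO and 61.9, 57.7 and 69.3 in WT (log2 difference -0.22, SE 0.12, adjusted p = 0.628), and Cd74, the invariant chain, differed by 0.01 (SE 0.12). Of 21 class I genes none was called (median 0.04). In the list of lysosomal processing and Fc recycling 2 of 17 fell (0.266% of all genes). Fcgrt, the neonatal Fc receptor that recycles IgG and albumin, was at 3.57, 2.39 and 3.35 in KO and 8.59, 13.2 and 9.67 in WT (-1.48, SE 0.19, adjusted p = 0.00621). Scimp, a transmembrane adaptor of antigen-presenting cells, was at 4.42, 8.39 and 5.82 in KO and 17.8, 19.2 and 15.0 in WT (-1.38, SE 0.20, adjusted p = 0.00937). For both genes the KO and WT libraries were well apart. Ctsh, a lysosomal protease, was at 45.4, 46.4 and 47.5 in KO and 64.3, 75.9 and 64.8 in WT, apart but not called (-0.54, adjusted p = 0.0587).

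The genes that fell most were of no single list. Wfdc17, a small secreted protein with a whey acidic protein domain, was at 2.29, 0.610 and 2.12 RPKM in KO and 15.3, 17.9 and 11.9 in WT (chromosome 11, from 83704056 to 83706269). The KO mean was 1.67 ± 0.923 against 15.0 ± 2.99 (SD, n = 3 each), and the log2 difference was -2.64 (SE 0.26, adjusted p = 0.000981 by limma). Cyp27a1, a mitochondrial sterol hydroxylase, was at 2.18, 3.79 and 1.25 in KO and 13.6, 20.5 and 11.7 in WT (-2.29, SE 0.27, adjusted p = 0.00297). Kmo, the kynurenine monooxygenase of tryptophan breakdown, was at 4.88, 11.4 and 7.34 in KO and 26.8, 29.7 and 30.1 in WT (-1.82, SE 0.22, adjusted p = 0.00315). In all 3 genes the groups were separated by a wide gap. Lrrk2, a large kinase linked to Parkinson disease, fell by 1.40 on the log2 scale and Aldh3b1, an aldehyde dehydrogenase, by 1.31. Cd200, the ligand of an inhibitory receptor on myeloid cells, fell by 1.22 from a WT mean of 14.8 RPKM. Gna15, a G protein subunit of blood cells, fell by 1.14, and so did Lacc1, while Rassf4 fell by 1.26.

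Further falling genes had smaller differences. They include Pdlim1, a cytoskeletal adaptor (-1.13), Trib2, a pseudokinase (-1.12), Tagap, a GTPase-activating protein (-0.96), Adam19, a membrane metalloprotease (-0.93) and Oxct1, an enzyme of ketone body use (-0.77). Mir150 is the precursor locus of a microRNA of lymphocytes. It was at 29.1, 33.4 and 30.9 RPKM in KO and 49.0, 71.0 and 48.4 in WT (-0.81, adjusted p = 0.0379), and this value does not measure the mature microRNA.

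Other genes that rose were of no single list either. Ptpn22, a phosphatase that damps antigen receptor signalling, was at 54.0, 50.3 and 44.7 RPKM in KO and 25.7, 20.7 and 19.5 in WT (log2 difference 1.15, SE 0.14, adjusted p = 0.00301). Erbb3, a neuregulin receptor, was at 4.19, 4.79 and 7.10 in KO and 1.44, 0.767 and 0.253 in WT, a rise from a low level (1.83, SE 0.26, adjusted p = 0.00937). Trem1, an activating receptor known from myeloid cells, was at 5.17, 4.85 and 5.73 in KO and 2.33, 0.840 and 1.03 in WT (1.43, adjusted p = 0.0166). Tmem121 rose by 1.45 to 12.1, 8.47 and 4.87 from 3.09, 2.25 and 1.68, with KO C the lowest KO library as for the marginal zone genes. Cfp, which encodes properdin, the stabiliser of the alternative complement pathway, was at 123, 92.9 and 87.4 in KO and 59.0, 41.7 and 53.5 in WT (0.96, adjusted p = 0.0177). Ebi3, a cytokine subunit of IL-27 and IL-35, was at 34.5, 24.8 and 29.9 in KO and 20.0, 13.2 and 14.3 in WT (0.88, adjusted p = 0.0458).

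Other called genes with higher values were Abcb1a, a drug efflux pump (1.39), I830077J02Rik (1.30), Sema7a, a membrane-bound semaphorin (1.19), Lpcat2, an enzyme of platelet-activating factor synthesis (1.19), Gm4956 (1.17), Slc29a4, a monoamine transporter (1.14), Stom, a membrane protein (1.13), and Ltk, a receptor tyrosine kinase (1.11). Smaller were Lgals3bp, a secreted galectin ligand (0.92), Mirt1 (0.86), Dglucy (0.84), Pacc1, a proton-activated chloride channel (0.68), and Mir6236 (0.60). Bcl2a1b, an anti-apoptotic protein of the BCL2 family, rose by 0.64 to 69.2, 58.1 and 56.9 RPKM from 40.9, 40.4 and 35.7 (adjusted p = 0.041). Its near-identical copy Bcl2a1d missed the threshold (0.66, adjusted p = 0.0529), and reads may be shared between them. Tspan15, a tetraspanin, was at 21.0, 21.6 and 9.40 in KO and 8.94, 3.27 and 2.73 in WT, a difference of 1.68 that was not called (adjusted p = 0.0645).

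**Figure D4:**
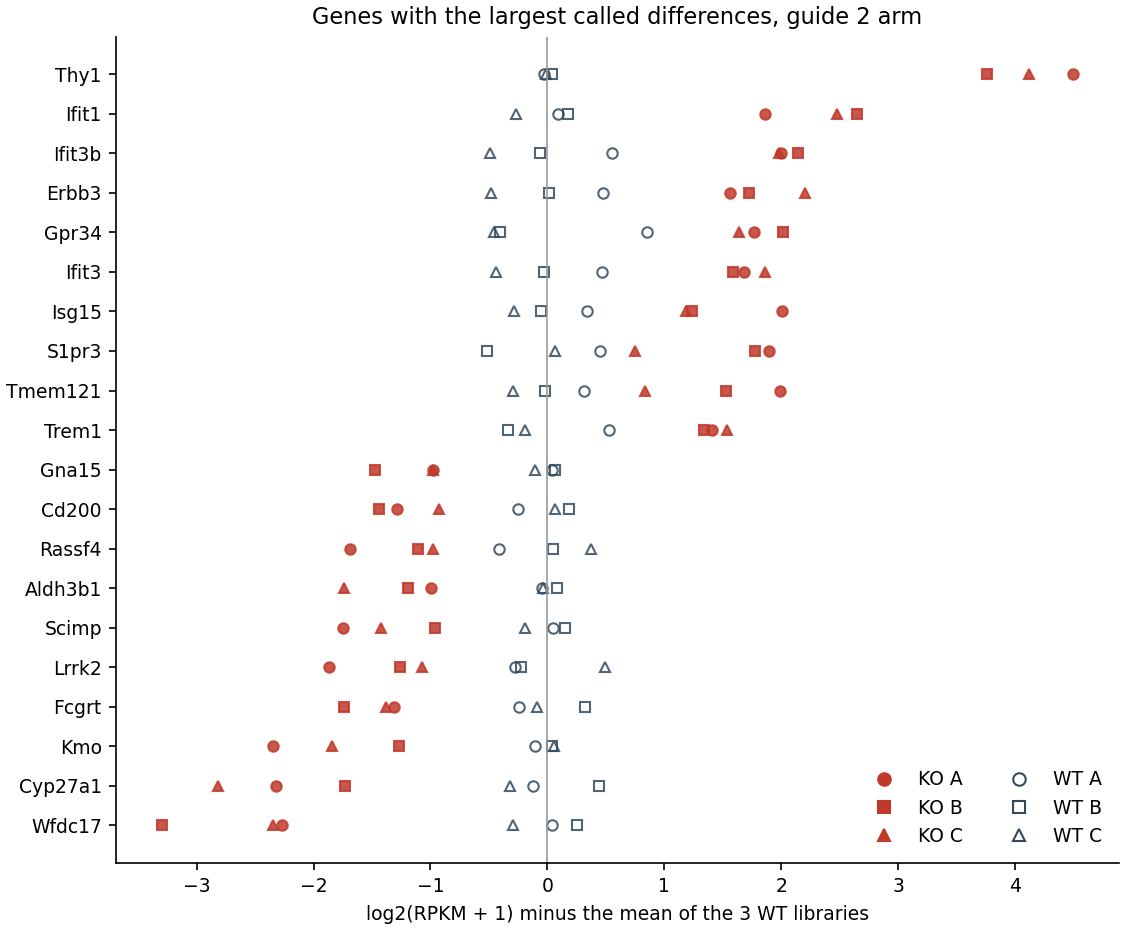
Each point is one library's log2(RPKM + 1) minus the mean of the 3 WT libraries, for the 10 called genes with the highest and the 10 with the lowest differences (red KO, open WT; circle A, square B, triangle C). The KO libraries of Ifit3b and Ifit3 cluster, whereas KO C of S1pr3 and Tmem121 stands nearer to WT, and Wfdc17 lies farthest below 0 with a mean of -2.64.

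Among the other programmes few genes passed. The 18 chemoattractant and lysolipid receptors held Gpr34 and S1pr3 as the 2 that rose, both also on the marginal zone list. Over all genes 0.297% were called higher, the share to set beside each count of risen genes in this paragraph. All KO libraries lay above all WT libraries for 4 of the 18 (7.37% of all genes) and below for 6 (6.39%), such as Cxcr4, the receptor for CXCL12 (-0.64, adjusted p = 0.285), and Ccr6 (-0.71, adjusted p = 0.178). Of 26 B cell receptor signalling genes 1 rose, again Cr2. Of 16 costimulation genes Ebi3 was the 1 that rose, and of 12 BCL2 family genes Bcl2a1b. Of 21 DNA replication genes none was called and 17 had a negative difference (48.2% of all genes; median -0.15), with 6 below WT in all KO libraries (6.39%). Of 14 G2/M genes none was called (median -0.25), and of 21 MYC and ribosome biogenesis genes none was called with 17 positive (median 0.09). Oxidative phosphorylation (24 genes, median 0.07), p53 targets (19, -0.12), Toll-like receptor and NF-kB genes (23, 0.01), glycolysis (17, 0.08), B-1 and age-associated genes (13, 0.27), the unfolded protein response (26, 0.01), cytokine and TNF family receptors (15, -0.08) and immediate early and stress genes (23, -0.05) also had none called. Of the 24 oxidative phosphorylation genes 22 had a positive difference (51.8% of all genes).

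Genes of other cell types were counted from lists of markers, and no member of these lists was called. B cell genes were abundant in all 6 libraries, with Cd79a between 1125 and 1491 RPKM. The T cell genes Cd3d, Cd3e, Cd3g, Cd4 and Cd8a and all 10 neutrophil genes had no row in the table. Of 13 T cell genes 4 were in the table and summed to between 77.3 and 81.4 in KO and between 86.9 and 108 in WT, mostly from Cd2, which B cells express too. Zap70, a kinase of T and natural killer cells, was at 4.69, 2.74 and 1.23 in KO and 0.933, 0.462 and 0.763 in WT, apart with KO A the highest (log2 difference 1.08, adjusted p = 0.182). Of 12 natural killer genes 7 were in the table, with sums of 28.9 to 45.1 in KO and 11.9 to 29.7 in WT, mostly from Tyrobp, a signalling adaptor. Tyrobp was at 40.2, 29.1 and 24.7 in KO and 19.8, 10.7 and 15.0 in WT (log2 difference 1.01, adjusted p = 0.0622). Prf1, the pore-forming protein of cytotoxic cells, was at 4.59, 5.33 and 3.50 in KO and 2.04, 0.937 and 1.91 in WT (1.07, adjusted p = 0.0587). Both natural killer genes that were tested thus had all KO libraries above all WT libraries (7.37% of all genes). The defining genes Ncr1 and Nkg7 were at or below 0.102 in every KO library. In WT C Ncr1 was at 2.999 and Nkg7 at 5.49, and Jchain, of plasma cells, at 65.9. Of 16 macrophage and monocyte genes 12 were in the table and summed to between 7.68 and 10.2 in KO and between 5.72 and 22.1 in WT. WT A was the high library, with C1qb at 3.39, and in WT B and C C1qa and C1qb were at 0. The sums over 11 dendritic cell genes were 17.8 to 20.7 in KO and 17.1 to 25.4 in WT, mostly from Bcl11a, a B cell gene as well. Erythroid, platelet and stromal lists had overlapping sums, the last of 41.5 to 60.5 in KO and 49.2 to 55.0 in WT, mostly from Pecam1. Hba-a1, a globin of red cells, was at 3.30, 2.23 and 0.644 in KO and 0.1, 0.534 and 0.340 in WT (1.11, adjusted p = 0.204). The part of other cell types in the results above was not tested.

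Depth and the number of genes at 0 were graded across the KO libraries. The estimated reads in genes were between 15900000 and 22200000 per library, and 75 to 232 genes were listed at 0. KO A, B and C had 22200000, 18400000 and 15900000 reads, with 232, 118 and 75 genes at 0. WT A, B and C had 17900000, 17500000 and 19700000 reads, with 136, 105 and 110 genes at 0. Each library's median correlation with the other 5 was between 0.96 and 0.976, lowest in KO A. The first principal component (37.9% of variance) ran from -27.5 in KO A over -10.2 in KO B to 2.61 in KO C, with WT at 5.59, 10.7 and 18.9. KO A, B and C thus had the same order in depth, in genes at 0, on this component and in the marginal zone medians. The part of depth or library quality in that order was not tested. No batch is given in the labels.

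The other guide of the study, guide 1, has its own 3 KO and 3 WT libraries. The labels do not say whether the arms share animals. In the library labelled WT A of the guide 1 arm Thy1 was at 4.93 RPKM, which goes against its label as Thy1.1-. It was at 0 and 0.031 in WT B and C of that arm and at 8.88, 12.02 and 12.4 in its KO libraries. Values without the library labelled WT A are therefore given too. With these 6 libraries limma called 0 of 9864 genes (0%), with 882 at an unadjusted p under 0.05 where 493 would come by chance. Without KO guide 1 library A, in which 1405 genes were listed at 0, it called 63, and without the library labelled WT A 0 (538 at an unadjusted p under 0.05). Of the 29 genes higher with guide 2, 28 had a positive difference with guide 1 (45% of all genes had one there), and 23 had all KO guide 1 libraries above all WT (7.78% of all genes). Of the 26 lower genes, 24 had a negative difference with guide 1 (55%) and 14 had all KO libraries below (9.99%). The higher genes include Thy1, which the sort set in both arms, and the lower genes include Irf8, the target of both guides. The agreement of Thy1 between the guides is therefore no finding. In both arms only the KO cells carried a guide and were sorted as Thy1.1+. Agreement between the arms therefore cannot tell loss of Irf8 from these. The median differences of the higher genes were 1.17 with guide 2 and 1.39 with guide 1, and those of the lower genes -1.13 and -0.96. Without the library labelled WT A, 28 of the higher genes were still positive (44.7% of all genes) and 24 of the lower genes negative (55.3%), with guide 1 medians of 1.40 and -0.96. Without KO guide 1 library A, 7 of the higher and 4 of the lower genes were called with guide 1. In that library Wfdc17, Cyp27a1, Kmo and Fcgrt were at 0. Without it their guide 1 differences were -2.26, -1.18, -1.51 and -1.34, against -2.82, -2.24, -2.77 and -2.11 with it. Among the 10 lowest called genes Aldh3b1 (-0.70 to -0.93) and Gna15 (0.03 to -0.15) moved the other way. The counts of signs and the medians above include that library. Over 9613 genes tested with both, 57.9% had the same sign and the differences correlated at r = 0.42, given as a description since genes share libraries.

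Marginal zone genes differed more with guide 1 (median 1.36) than with guide 2 (0.78), also without the library labelled WT A (1.59), a contrast that was not tested as a list. S1pr3 was at 112, 78.3 and 164 RPKM in guide 1 KO and 22.4, 16.7 and 14.7 in its WT, a difference of 2.61 (2.77 without the library labelled WT A). Gpr34 was at 39.6, 28.4 and 39.8 in guide 1 KO and 5.07, 3.16 and 0.246 in its WT (3.53, or 4.0 without that library). In the guide 2 arm both genes had a higher WT level and a lower difference. The list's guide 1 median was not taken without KO guide 1 library A. Without that library the guide 1 difference was 2.62 for S1pr3 and 1.66 for Cr2 (1.58 with it). It was smaller without that library for Gpr34 (3.46), Dtx1 (1.75 from 1.96) and Rgs10 (1.59 from 2.06). The same held for Cd9 (0.95 from 1.52) and Cd1d1 (1.07 from 1.16). Irf8 was at 59.5, 77.7 and 72.4 in guide 1 KO and 95.8, 98.0 and 93.3 in its WT, so KO cells held 73% of WT, against 58% with guide 2.

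Of the interferon-stimulated genes, Ifit1 was at 29.1, 12.2 and 15.5 RPKM in guide 1 KO and 4.41, 5.24 and 7.69 in its WT, apart in the same direction as with guide 2 and not called (log2 difference 1.49, adjusted p = 0.262). Isg15 was at 32.2, 13.7 and 26.8 in guide 1 KO and 8.004, 7.32 and 11.1 in its WT (1.30, adjusted p = 0.269). Oas1a was at 14.1, 11.4 and 12.7 in guide 1 KO and 3.63, 7.32 and 5.89 in its WT (1.09, adjusted p = 0.262), and for both genes the groups were apart as well. Without the library labelled WT A the 3 differences were 1.34, 1.25 and 0.86. KO guide 1 library A was the highest KO library for all 3 genes. Without it Ifit1 differed by 1.15 and Isg15 by 1.06. Ifit3 was at 69.6, 23.4 and 58.7 RPKM in guide 1 KO and 24.6, 36.0 and 26.1 in its WT, and the groups overlapped, with KO B at the lowest level of the 6. The Ifit3 difference was 0.67, or 0.37 without KO guide 1 library A. With guide 2 all 3 KO libraries were above WT. Ifit3b, also apart with guide 2, overlapped with guide 1. It was at 30.1, 5.89 and 24.3 in guide 1 KO and 6.03, 9.47 and 6.62 in its WT. The Ifit3b difference was 1.09, or 0.68 without KO guide 1 library A. Erbb3 was at 5.34, 1.30 and 1.91 in guide 1 KO and 2.37, 2.18 and 3.45 in its WT, a difference of -0.06 against 1.83 with guide 2. Gna15 and Gm4070 were the lower genes without a fall with guide 1 (0.03 and 0.02). Tested directly, the difference between the guides was called for 0 of 10137 genes by limma (0 also without the library labelled WT A), at a smallest adjusted p of 0.918, with 479 at an unadjusted p under 0.05 and 507 expected by chance. This holds for Erbb3 (difference between guides 1.89), Gpr34 (-1.72), S1pr3 (-1.13) and Ifit3 (1.04) too, each at adjusted p = 0.918.

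**Figure D5:**
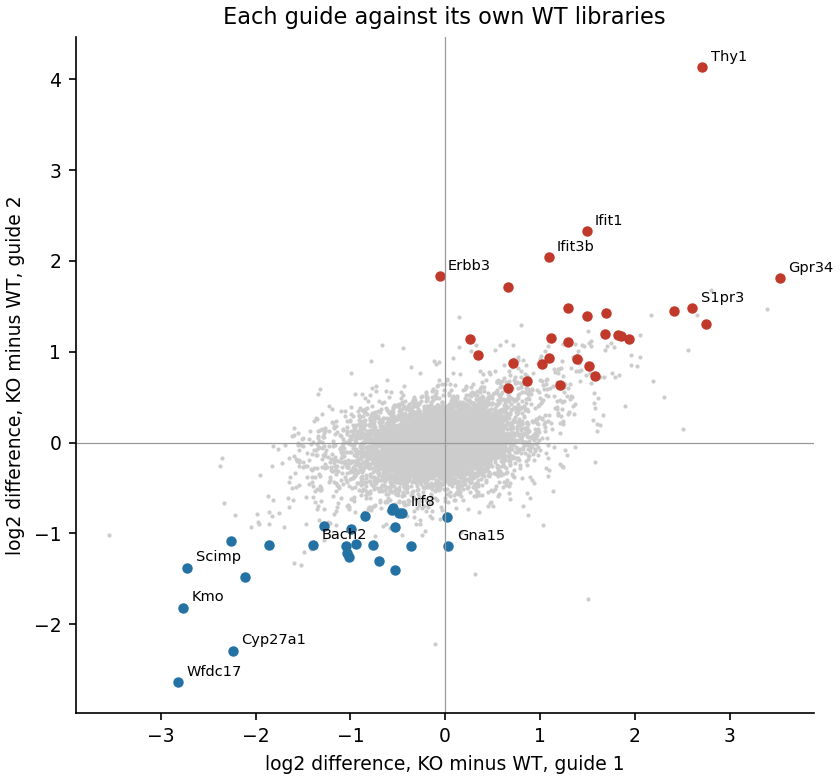
Log2 difference of each gene with guide 1 (x axis) and guide 2 (y axis), each against its own WT libraries; red and blue points are the 29 higher and 26 lower genes called with guide 2, grey all others. The called points lie in the upper right and lower left, except Erbb3, Gna15 and Gm4070 near 0 on the x axis.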

How the data were processed

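RNA of sorted B cells was lysed in RLT buffer, purified with the Quick-RNA MicroPrep kit and made into SMART-seq v4 and Nextera XT libraries, per the labels' protocols. STAR and the mm10 build are named in the submitters' processing notes. The counting tool and annotation are not given in the sources used here. The deposited values are RPKM, which the authors computed and gave with 3 decimals. Low values came in steps of 1 read (tolerance 0.2 of a read), and these steps gave the depth of each library. Of 11548 genes, the 9770 at RPKM 1 or more in at least 2 of the 6 libraries were tested as log2(RPKM + 1), a scale that understates changes of low genes, with limma 3.58.1 in R 4.3.3 (trend, two-sided, Benjamini-Hochberg over all tested genes). Date-like symbols (15) were restored from gene identifiers; coordinates are RefSeq's for GRCm38, which mm10 names. Genes named are the 10 highest and 10 lowest called, the same among genes whose groups lie apart, the extremes and defining members of each list, and others called; Rsad2, Mx1, Ifit2, Oas1g, Cxcr4, Cd79a, Jchain, Bcl11a and Prkab2 were chosen after their values were seen. A few list members, counted in the lists, are not reported here. The libraries, lists and promoter motifs were chosen with earlier results of these data known. Alternatives were other pseudocounts, filters, scalings, variance models, a replicate block and leaving out each library; limma voom on recovered reads, list counts, the shorter promoter window and guide 1 values without its WT A were added after seeing the data.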

Additional observations from a re-analysis of the deposited data

Results flagged for a closer look

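Cd40, a costimulatory receptor of B cells, had all KO libraries above all WT libraries with guide 2 (log2 difference 0.25) and all below with guide 1 (-0.13). It was picked because the guides lay on opposite sides. It was called with neither guide, and the test of the difference between the guides did not call it (adjusted p = 0.918).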

How the results depend on the processing

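Over 18 alternatives no called gene changed sign, and Ifit1 and Thy1 were called in all 18, of which Thy1 was set by the sort. The 55 calls (29 higher, 26 lower) became 7 (5, 2) without a filter on low values, 33 (15 higher) without a trend in the spread, 95 (54, 41) with library weights, and 3 (2, 1) in a fit of all 12 naive libraries, where the spread is shared with the guide 1 arm. Leaving out 1 library gave 9 to 152 calls, 5 to 109 higher and 4 to 43 lower. The lowest came without WT B (9), then WT C (14), KO A (25) and KO B (38), and the highest without KO C (152). 9 calls held in all 6 of these fits: Ifit1, Ifit3, Ifit3b, Ptpn22, Thy1, Wfdc17, Cyp27a1, Fcgrt and Kmo. limma voom on recovered reads, added after seeing the data, called 38 genes (16 higher), 36 of them among the 55; 99.5% of values up to 200 reads came out whole. The Irf8 difference was -0.77 without a trend, no longer called (adjusted p = 0.0512), and between -0.82 and -0.74 without 1 library, not called without WT B (0.0706). Pax5 turned positive without KO A (0.01), KO B (0.11) and WT C (0.14) in a range from -0.14, and Cd74 negative with library weights (-0.06) and without KO A (-0.02), KO C (-0.02) and WT C (-0.05) in a range up to 0.08. Bcl11a, added after its values were seen, was positive without WT C (0.02, range from -0.19). The ISRE core was in 3.38% of promoters when the bases after the start were left out. The share of calls that were higher was between 36% and 71.7%. A replicate block on the letters gave 174 calls (112 higher, 62 lower) and 10 in the marginal zone list, with same-letter correlations of 0.0864, -0.109 and 0.179. The labels give no pairing by letter, and the libraries were treated as unpaired. Guide 1 went from 0 to 63 calls without its KO A. Depth limits genes near 1 RPKM; counting error is not modelled on this scale. The cause of these shifts was not tested.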
